A study of Mus musculus with 6 samples.

Results

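The potassium channel subunit genes are the rows of the count table whose symbol starts with Kcn, without the antisense RNAs Kcnq1ot1 and Kcnd3os. They number 96 of 24411 genes, and 2 of them, Kcnmb4os1 and Kcnmb4os2, are antisense RNAs, which leaves 94 subunit genes. They were measured in bulk RNA-seq of UV2 cells (3 libraries), a mouse endothelial line of (BALB/c x C57BL/6)F1 strain also written UV♀2, and of bEnd.3 cells (3 libraries), a mouse brain endothelial line of BALB/c strain that was immortalised with polyomavirus middle T antigen. What immortalised UV2 is not given in the sources used here. Both lines were grown to confluency on 10-cm dishes and then held without serum for 3 days. Each line comes from 1 strain, so line and strain cannot be told apart. Separate cultures for the libraries of each line are not stated. The p-values therefore rest on the spread of these libraries alone, which may be technical.

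Potassium channels let potassium leave the cell and so hold the membrane potential negative. In endothelium, inward rectifiers keep the resting potential, and calcium-activated channels hyperpolarise the cell when calcium rises, a signal that can pass to the smooth muscle. A channel is built from pore-forming subunits, of which some conduct only together with others, and accessory subunits that change gating or traffic. Levels are given in CPM, a gene's count scaled by TMM to one library size. Differences on the log2 scale are UV2 minus bEnd.3, with a standard error (SE). Their p-values come from the quasi-likelihood test of edgeR, adjusted by Benjamini-Hochberg over 12720 genes, and a gene was called where that value was under 0.05.

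UV2 had more transcript of the inward rectifiers Kcnj2 and Kcnj15 and of the voltage-gated Kcnh2. It had the tandem-pore gene Kcnk10 and the silent subunit gene Kcnf1, of which bEnd.3 held few or 0 counts. Kcnh1 and Kcnh3 were lower in UV2. Kcnq1 was abundant in both lines. The calcium-activated genes of the classical endothelial response were low in both lines, and Kcnj8 was nearly absent. Of the 96 members, 28 had 0 counts in every library, 48 had counts but were too low to be tested, and 20 passed the filter on low counts. Of these 20, UV2 was higher in 11 and lower in 5, and 4 were not called. Over all genes tested, 67.1% were called, 33.9% higher and 33.3% lower in UV2. A change beyond 2-fold was called for 8 higher and 3 lower members, and for 19.4% of all genes tested. Only 10 of the 20 reached the filter's level in all libraries of both lines, and of those 4 were higher, 3 lower and 3 not called. Another 7, Kcnf1, Kcnk10, Kcnc2, Kcna1, Kcna4, Kcnip3 and Kcnab3, passed through UV2, and 3, Kcnh1, Kcnh3 and Kcnip4, passed through bEnd.3. In those 10 at least 1 library of the other line lay under that level, so their differences are not independent of the filter. The same limit holds for their adjusted p-values given below.

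**Figure D1:**
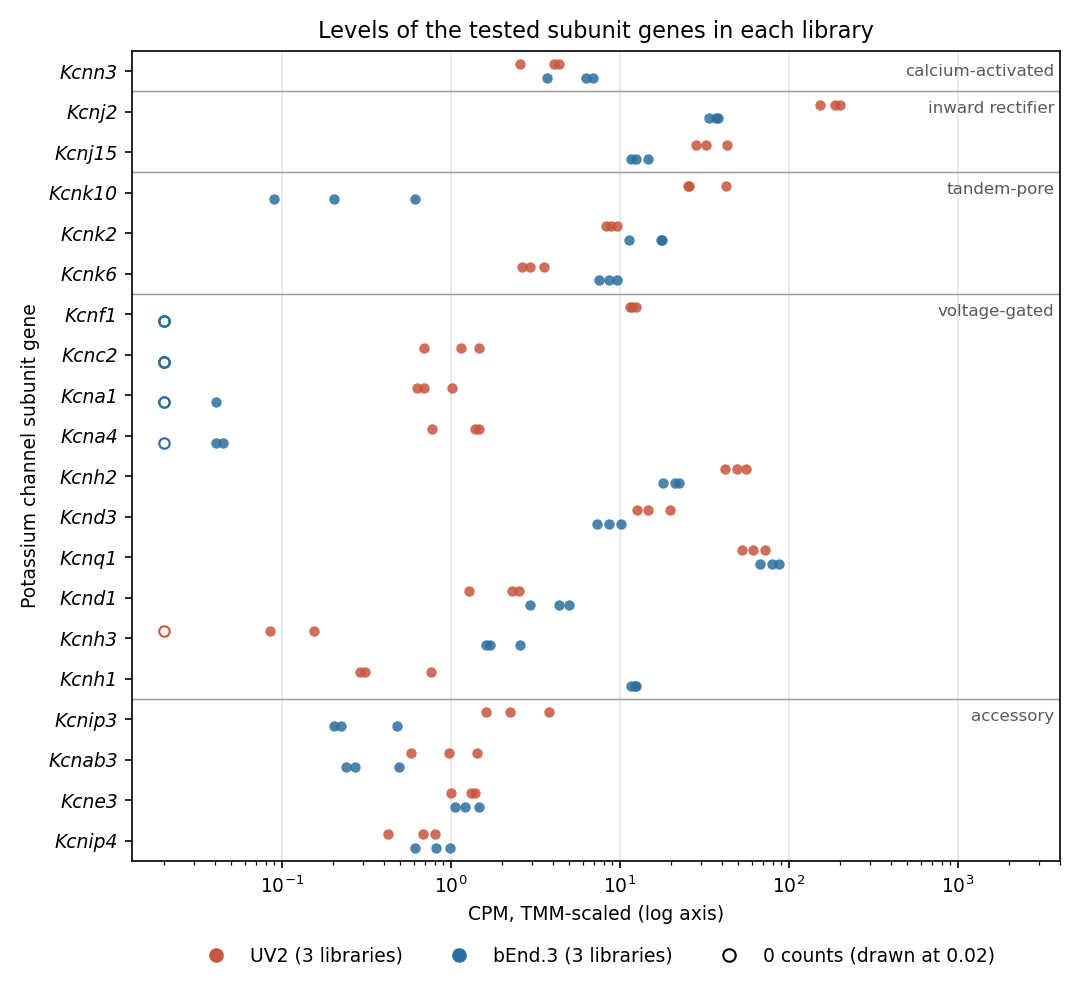
Level of each of the 20 tested subunit genes in each library, as CPM on a log axis, with UV2 points above bEnd.3 points in each row and genes grouped by class. Open circles are libraries with 0 counts, drawn at 0.02. Kcnj2 has 153 to 201 CPM in UV2 and 33.4 to 38.1 CPM in bEnd.3, and Kcnf1 has 0 counts in all 3 bEnd.3 libraries.

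The start regions of 4 genes are shown here. They are the most abundant member in UV2 and 3 of the members with under 1 CPM in every library of 1 line. Among such members these 3 had the highest means in the other line. Each region is the 300-base window from 250 bases before to 50 bases after an annotated start (RefSeq, GRCm38.p6, the assembly of mm10), 5′ to 3′ on the gene's strand, with CpG dinucleotides in capitals. The Kcnj2 window is chr11:111065914-111066213 on the plus strand, the Kcnf1 window is chr12:17176839-17177138 on the minus strand, the Kcnk10 window is chr12:98578164-98578463 on the minus strand, and the Kcnh1 window is chr1:192190527-192190826 on the plus strand.
Kcnj2: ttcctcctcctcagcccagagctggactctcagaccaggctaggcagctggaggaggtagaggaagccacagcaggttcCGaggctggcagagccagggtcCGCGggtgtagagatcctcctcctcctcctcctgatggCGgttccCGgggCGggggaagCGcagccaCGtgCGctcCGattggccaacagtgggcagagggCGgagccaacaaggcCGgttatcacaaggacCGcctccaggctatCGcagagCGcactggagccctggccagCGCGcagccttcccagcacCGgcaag
Kcnf1: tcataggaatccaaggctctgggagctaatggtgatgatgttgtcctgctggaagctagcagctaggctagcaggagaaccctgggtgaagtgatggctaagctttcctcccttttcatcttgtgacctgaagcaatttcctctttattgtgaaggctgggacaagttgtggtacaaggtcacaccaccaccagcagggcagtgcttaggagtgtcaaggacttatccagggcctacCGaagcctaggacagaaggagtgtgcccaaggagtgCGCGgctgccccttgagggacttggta
Kcnk10: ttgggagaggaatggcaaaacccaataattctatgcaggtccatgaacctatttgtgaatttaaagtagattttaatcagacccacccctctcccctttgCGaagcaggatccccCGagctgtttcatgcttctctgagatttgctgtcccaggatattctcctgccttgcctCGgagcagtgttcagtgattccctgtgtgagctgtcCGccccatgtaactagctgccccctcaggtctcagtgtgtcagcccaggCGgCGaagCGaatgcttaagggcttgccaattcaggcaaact
Kcnh1: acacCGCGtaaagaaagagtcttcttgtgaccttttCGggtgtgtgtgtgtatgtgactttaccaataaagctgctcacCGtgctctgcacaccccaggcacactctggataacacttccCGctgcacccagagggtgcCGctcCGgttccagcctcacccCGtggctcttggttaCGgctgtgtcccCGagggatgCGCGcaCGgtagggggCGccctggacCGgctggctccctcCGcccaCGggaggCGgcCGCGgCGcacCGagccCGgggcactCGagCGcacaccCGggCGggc
The Kcnj2 window held 18 CpG dinucleotides, Kcnf1 3, Kcnk10 7 and Kcnh1 27. The median over all 32851 windows of the table was 7, and 23.3% of windows held fewer than Kcnf1 while 84.5% held fewer than Kcnh1. Kcnk10 has another annotated start, whose window held 18. The Kcnh1 window lies inside the span given for that gene below, so it is not at the gene's outer end. The letters GGGCGG, searched on both strands and each holding a CpG, occurred 2 times in the Kcnj2 window, 2 times in the Kcnh1 window and 1 time in the Kcnk10 window, and were in 35.7% of all windows. The letters TATAAA, searched on both strands, were in none of these 4 windows and in 13.6% of all windows. Windows were found for 70 of the 96 members, and their median CpG number was 9. Over the 15 windows of 9 members higher in UV2 the quartiles were 4.5 and 18.5, and only 2 lower members had windows.

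Inward rectifiers pass current into the cell more easily than out of it and so clamp the resting potential. Kcnj2, which encodes the strong inward rectifier of endothelial and muscle cells (chromosome 11, 111066164 to 111076825), had 153, 187 and 201 CPM in UV2 replicates 1, 2 and 3, against 38.1, 33.4 and 36.8 CPM in bEnd.3 replicates 1, 2 and 3. All UV2 libraries lay above all bEnd.3 libraries (2.32 ± 0.11 on the log2 scale, estimate and SE, adjusted p = 1.9e-06). Kcnj15, an inward rectifier best known from epithelia (chromosome 16, 95257558 to 95300260), had 32.4, 28.1 and 42.8 CPM in UV2 and 12.4, 11.6 and 14.7 CPM in bEnd.3. Its libraries did not overlap either (1.41 ± 0.17 on the log2 scale, estimate and SE, adjusted p = 0.000199). Both also passed a test for a change beyond 2-fold (edgeR's glmTreat, adjusted p = 1.42e-05 for Kcnj2 and 0.0283 for Kcnj15), which 10.6% of all genes tested passed in this direction. With total counts, members higher beyond 2-fold fell from 8 to 7, and the Kcnj15 estimate was 1.35. Of 15 inward rectifier genes these 2 were tested and 4 had 0 counts throughout.

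The other inward rectifiers were near the detection limit. Kcnj8, the pore of the ATP-sensitive channel of pericytes and smooth muscle, had 4 counts over the UV2 libraries and 4 over the bEnd.3 libraries. Kcnj11, the ATP-sensitive pore known from pancreatic beta cells and muscle, had 7, 2 and 7 counts in UV2 and 0 in bEnd.3, a bound of 5.80-fold higher. The bound sets a line without counts at 3 counts in all, summed over its libraries. This floor is 0.0427 CPM in UV2 and 0.0393 CPM in bEnd.3. The bound takes the counts of the other line as measured, so it leaves out that line's counting error and spread. These pores need a sulphonylurea receptor. Abcc8 had 13 counts in UV2 and 0 in bEnd.3, and Abcc9 had 5 counts in UV2 and 21 in bEnd.3. Kcnj1, the renal outer medullary channel, had 0 counts in UV2 and 11 in bEnd.3.

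Tandem-pore channels give background potassium leak that stretch, acid or lipids can modulate. Kcnk10, a member of the stretch- and lipid-sensitive branch (chromosome 12, 98429432 to 98578213), had 25.6, 25.3 and 42.4 CPM in UV2, against 0.0897, 0.611 and 0.204 CPM in bEnd.3. The bEnd.3 values rest on 2, 15 and 6 counts, and the lowest UV2 library stood far above all of them (6.67 ± 0.44 on the log2 scale, estimate and SE, adjusted p = 8.5e-06). The estimate was 7.62 without bEnd.3 replicate 2. Kcnk2, the close relative of Kcnk10 that has been studied in brain endothelium (chromosome 1, 189207930 to 189402782), went the other way, with 8.83, 9.55 and 8.25 CPM in UV2 and 11.3, 17.7 and 17.5 CPM in bEnd.3. The lines did not overlap, although bEnd.3 replicate 1 lay nearer to UV2 than the other 2 bEnd.3 libraries (-0.81 ± 0.18 on the log2 scale, estimate and SE, adjusted p = 0.00532).

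Kcnk6, a weakly conducting tandem-pore channel found in endosomes and vascular smooth muscle (chromosome 7, 29221928 to 29232522), had 2.92, 3.54 and 2.62 CPM in UV2 and 7.53, 9.61 and 8.66 CPM in bEnd.3. All UV2 libraries lay below all bEnd.3 libraries (-1.51 ± 0.17 on the log2 scale, estimate and SE, adjusted p = 0.00013), and the change passed the test beyond 2-fold (adjusted p = 0.0115), which 8.81% of all genes tested passed in this direction. Members lower beyond 2-fold fell from 3 to 2 with each chromosome's median subtracted and without bEnd.3 replicate 2. The Kcnk6 estimates were then -1.26 and -1.42. Of 14 tandem-pore genes 3 were tested and 4 had 0 counts throughout. Kcnk3, Kcnk4 and Kcnk7 had 6 to 8 counts in UV2 and 9 to 14 in bEnd.3.

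**Figure D2:**
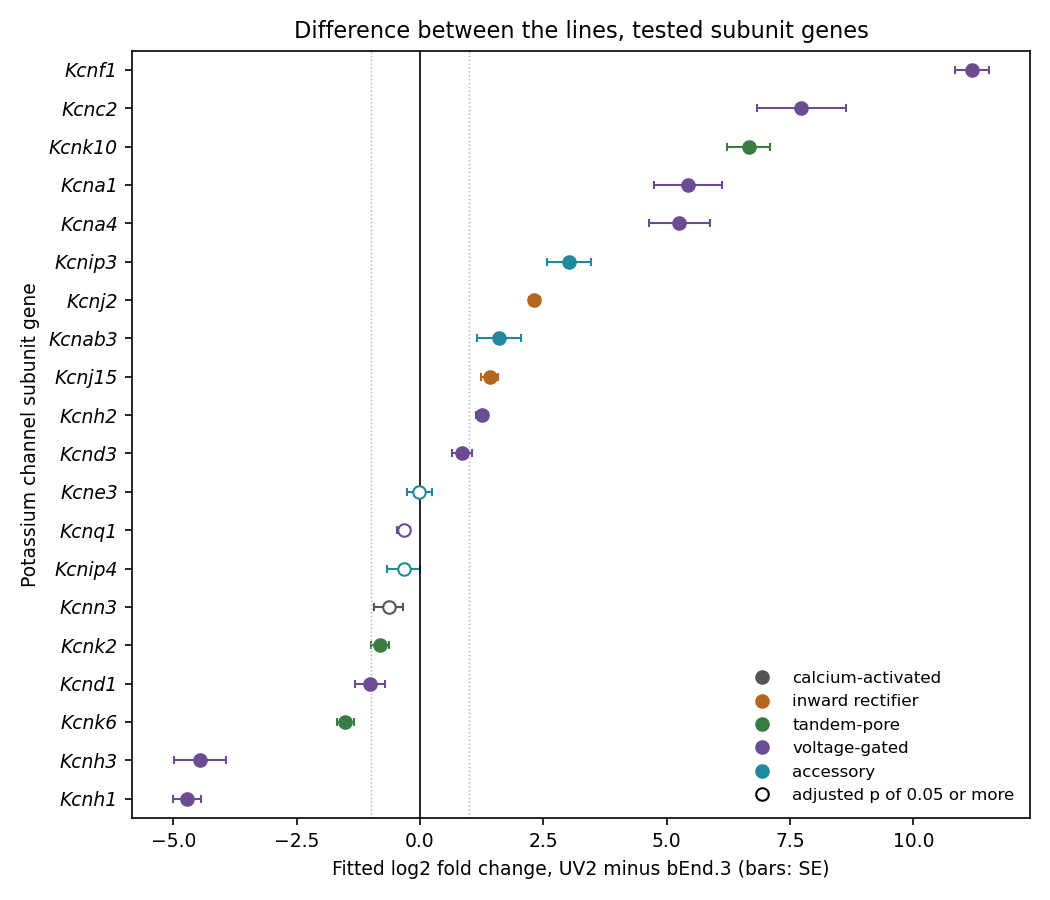
Fitted log2 fold change (UV2 minus bEnd.3) of the 20 tested subunit genes, sorted, with bars for the SE and colours for the class. Filled points passed the test and dotted lines mark 2-fold. The values run from 11.19 for Kcnf1 to -4.72 for Kcnh1, and the 4 open points are Kcne3, Kcnq1, Kcnip4 and Kcnn3. The fitted values of Kcnf1 and Kcnc2, at 0 counts in bEnd.3, depend on a prior count.

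Voltage-gated channels open on depolarisation, and the ether-a-go-go branch, the Kcnh genes, differed in both directions. Kcnh2, whose channel repolarises the heart (chromosome 5, 24319589 to 24351684), had 42.04, 55.9 and 49.5 CPM in UV2 and 21.3, 17.99 and 22.2 CPM in bEnd.3. All UV2 libraries were higher (1.26 ± 0.13 on the log2 scale, estimate and SE, adjusted p = 8.14e-05), but a change beyond 2-fold was not called (adjusted p = 0.0522). Kcnh1, which is mainly a brain channel and is often expressed in tumour cells (chromosome 1, 192189144 to 192510159), had 0.761, 0.291 and 0.308 CPM in UV2 and 12.4, 11.6 and 12.3 CPM in bEnd.3. The highest UV2 library stayed far below the lowest bEnd.3 library (-4.72 ± 0.28 on the log2 scale, estimate and SE, adjusted p = 5.31e-06). Kcnh3, a forebrain member of the same branch, had 2, 0 and 4 counts in UV2 (0.0845, 0 and 0.154 CPM) and 1.61, 1.71 and 2.55 CPM in bEnd.3. It was lower in all UV2 libraries (-4.46 ± 0.53 on the log2 scale, estimate and SE, adjusted p = 0.000185). The estimate was -5.30 without UV2 replicate 3, and Kcnh3 exons overlap those of Mcrs1 on the opposite strand, which had a mean of 75.5 CPM in UV2 and 51.2 CPM in bEnd.3.

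Kcnq1, the slow delayed rectifier of heart and epithelia (chromosome 7, 143106877 to 143427050), had 52.3, 60.9 and 72.4 CPM in UV2 and 86.9, 67.5 and 79.4 CPM in bEnd.3. The lines overlapped, since UV2 replicate 3 lay above bEnd.3 replicate 2, and the difference did not pass (-0.33 ± 0.14 on the log2 scale, estimate and SE, adjusted p = 0.0601). It passed in DESeq2 (adjusted p = 0.0489), with total counts (adjusted p = 0.025), without UV2 replicate 3 (adjusted p = 0.0162) and without bEnd.3 replicate 2 (adjusted p = 0.0358). It did not pass without any of the other 4 libraries (adjusted p = 0.121 to 0.199), and with each chromosome's median subtracted the estimate was -0.08 (adjusted p = 0.631). The antisense RNA Kcnq1ot1, which overlaps exons of Kcnq1, had 7.77, 8.92 and 5.94 CPM in UV2 and 0.628, 0.570 and 0.917 CPM in bEnd.3. How the counting used strand is not known, so reads of the 2 genes may not be fully parted.

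The A-type genes Kcnd3 and Kcnd1, whose channels inactivate rapidly, went opposite ways. Kcnd3 (chromosome 3, 105451890 to 105674002) had 12.6, 14.6 and 19.7 CPM in UV2 and 8.61, 10.2 and 7.26 CPM in bEnd.3, higher in all UV2 libraries (0.85 ± 0.20 on the log2 scale, estimate and SE, adjusted p = 0.00556). Kcnd1 (chromosome X, 7823759 to 7838278) had 2.54, 2.28 and 1.27 CPM in UV2 and 2.92, 4.36 and 4.96 CPM in bEnd.3. Its libraries did not overlap, but UV2 replicate 1 and bEnd.3 replicate 1 were close, and the call (-1.02 ± 0.30 on the log2 scale, estimate and SE, adjusted p = 0.0179) was lost without bEnd.3 replicate 2 (adjusted p = 0.0542) or bEnd.3 replicate 3 (adjusted p = 0.0639).

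Several voltage-gated genes best known from neurons and heart had counts in UV2 and 0 to 2 in bEnd.3. Kcnf1, an electrically silent subunit that changes the channels of other voltage-gated subunits (chromosome 12, 17172100 to 17176888), had 11.8, 11.5 and 12.5 CPM in UV2 and 0 counts in every bEnd.3 library. By the bound explained above it was at least 304-fold higher in UV2 (adjusted p = 3.04e-06). Kcnc2, the pore of a fast-repolarising channel of interneurons, had 1.14, 1.45 and 0.694 CPM in UV2 and 0 counts in bEnd.3. By the same bound it was at least 27.2-fold higher (adjusted p = 0.000593). Kcna4, an A-type subunit of the shaker branch, had 1.39, 1.45 and 0.771 CPM in UV2 and 1, 1 and 0 counts in bEnd.3. The UV2 to bEnd.3 ratio was 45.1 (95% counting interval 12.1 to 379; adjusted p = 0.00018), and its fitted log2 fold change of 5.26 was 4.64 without bEnd.3 replicate 3. Kcna1, another shaker subunit, had 55 counts over the UV2 libraries and 1 over the bEnd.3 libraries, a ratio of 59.8 (95% counting interval 10.3 to 2403; adjusted p = 0.000264), and its fitted log2 fold change of 5.43 was 7.27 without bEnd.3 replicate 2.

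Of the 40 voltage-gated genes 10 were tested and 12 had 0 counts throughout. Below the filter, Kcna5 had 17, 2 and 20 counts in UV2 and Kcnv2 had 9, 4 and 9, each against 0 in bEnd.3. In the other direction Kcng4, a silent subunit like Kcnf1, had 0, 2 and 0 counts in UV2 and 9, 25 and 33 in bEnd.3, a bEnd.3 to UV2 ratio of 30.8 (95% counting interval 8.21 to 259.8). Kcnh4 had 15 counts in UV2 and 3 in bEnd.3.

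Calcium-activated channels carry the hyperpolarisation of endothelium that follows a rise in calcium. Kcnn3, one of its main small-conductance subunits (chromosome 3, 89520164 to 89672494), was the only one of the 8 calcium- or sodium-activated genes to be tested. It had 4.35, 4.07 and 2.54 CPM in UV2 and 3.68, 6.92 and 6.31 CPM in bEnd.3. The lines overlapped through bEnd.3 replicate 1, and the difference did not pass (-0.63 ± 0.29 on the log2 scale, estimate and SE, adjusted p = 0.0851), although it did without that library (adjusted p = 0.0138) and once each chromosome's median was subtracted (adjusted p = 0.0288). Without any of the other 5 libraries it did not pass (adjusted p = 0.0865 to 0.257). Kcnn4, the intermediate-conductance subunit that marks this response in vessels, had 1, 3 and 3 counts in UV2 and 5, 4 and 3 in bEnd.3. Kcnn1, a small-conductance subunit, had 11, 5 and 8 counts in UV2 and 7, 1 and 7 in bEnd.3. Kcnma1, the large-conductance pore of smooth muscle, had 0 counts in UV2 and 1 in bEnd.3, and its accessory genes Kcnmb1, Kcnmb3 and Kcnmb4 had 0 counts throughout.

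Accessory subunits were low in both lines. Kcnip3, a calcium-binding partner of the Kcnd channels that is also a transcriptional repressor (chromosome 2, 127456498 to 127522094), had 2.24, 1.60 and 3.78 CPM in UV2 and 0.224, 0.204 and 0.475 CPM in bEnd.3. All UV2 libraries were higher (3.02 ± 0.45 on the log2 scale, estimate and SE, adjusted p = 0.000627). Kcnab3, a beta subunit of shaker channels, averaged 0.993 ± 0.423 CPM in UV2 and 0.332 ± 0.137 CPM in bEnd.3 (SD, n = 3 each; 1.60 ± 0.44 on the log2 scale, estimate and SE, adjusted p = 0.0127), and its call was lost without bEnd.3 replicate 3 (adjusted p = 0.0501). Kcne3, which holds Kcnq1 channels open in epithelia, averaged 1.24 ± 0.206 CPM in UV2 and 1.24 ± 0.208 CPM in bEnd.3, with overlapping libraries (-0.01 ± 0.24 on the log2 scale, estimate and SE, adjusted p = 0.976). Kcnip4 overlapped as well (-0.33 ± 0.34 on the log2 scale, estimate and SE, adjusted p = 0.407). Among accessory genes below the filter, Kcnip1 had 12, 2 and 13 counts in UV2 and 0 in bEnd.3, and Kcnab2 had 0 counts in UV2 and 7, 4 and 6 in bEnd.3. Kcnrg, which encodes a regulator of shaker channel assembly, had 9, 14 and 15 counts in UV2 and 2, 8 and 6 in bEnd.3.

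**Figure D3:**
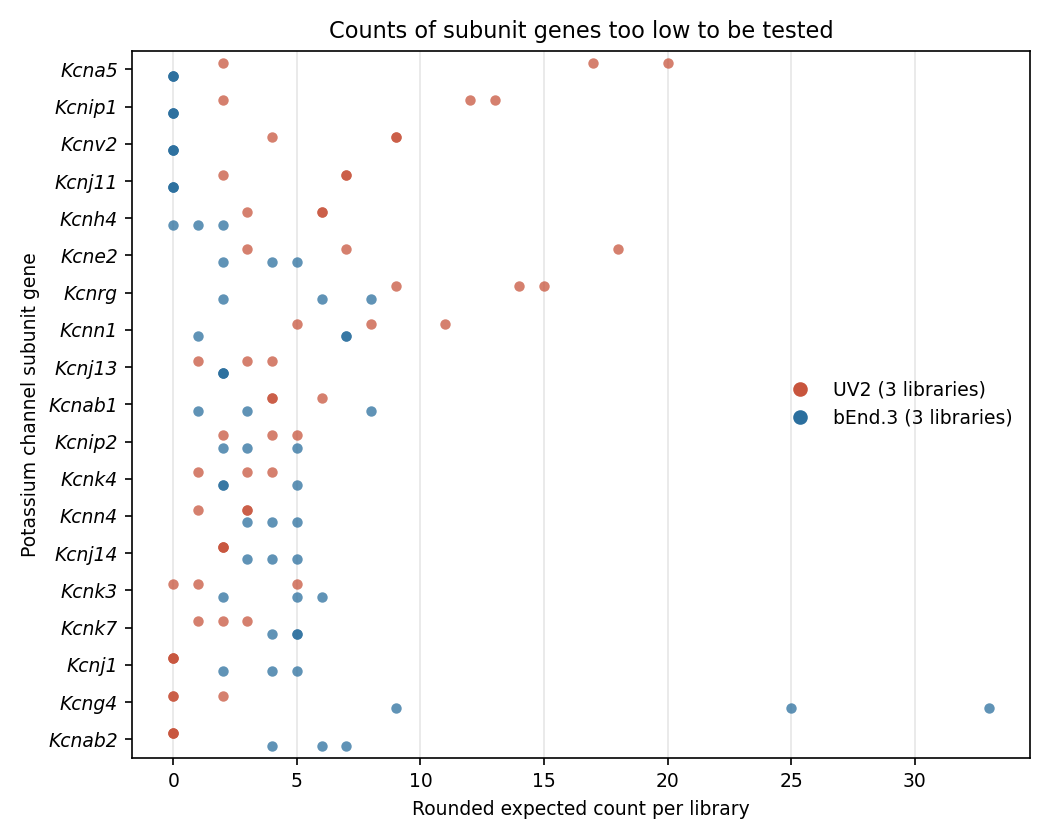
Rounded counts per library of 19 of the 21 untested subunit genes with at least 10 counts over the 6 libraries, sorted from higher in UV2 to lower in UV2. In 11 of the 19 drawn the libraries of the lines do not overlap, with UV2 above in 6 and below in 5, and 4 genes have 0 counts in bEnd.3. Of all genes tested, which unlike these passed the filter on low counts, 73.2% do not overlap.

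Of the 48 members that had counts but were not tested, 21 had at least 10 counts over the 6 libraries and the highest total was 69. In 12 of these 21 the lines did not overlap, with UV2 above in 7 and below in 5. Of all genes tested, which unlike these 21 passed the filter, 73.2% did not overlap. The other 27 had 1 to 9 counts in all. With every detected gene tested, 52.3% of 17283 genes and 28 of 68 members were called. Of the 48, 12 were called in that fit, among them Kcna5, Kcnip1, Kcnv2 and Kcnj11 as higher and Kcng4, Kcnab2 and Kcnj1 as lower in UV2.

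The summed level of the 96 members was 363, 416 and 470 CPM in UV2 and 213, 200 and 219 CPM in bEnd.3. Kcnj2 made up 42.1%, 45.1% and 42.7% of this sum in UV2 and 17.9%, 16.7% and 16.8% in bEnd.3. Kcnq1 made up 14.4%, 14.7% and 15.4% in UV2 and 40.8%, 33.7% and 36.3% in bEnd.3. Without Kcnj2 the sum was 210.4, 228 and 269 CPM in UV2 and 175, 167 and 182 CPM in bEnd.3. Kcnj2 was thus the leading member in UV2 and Kcnq1 in bEnd.3, and these sums weigh long transcripts more than short ones.

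**Figure D4:**
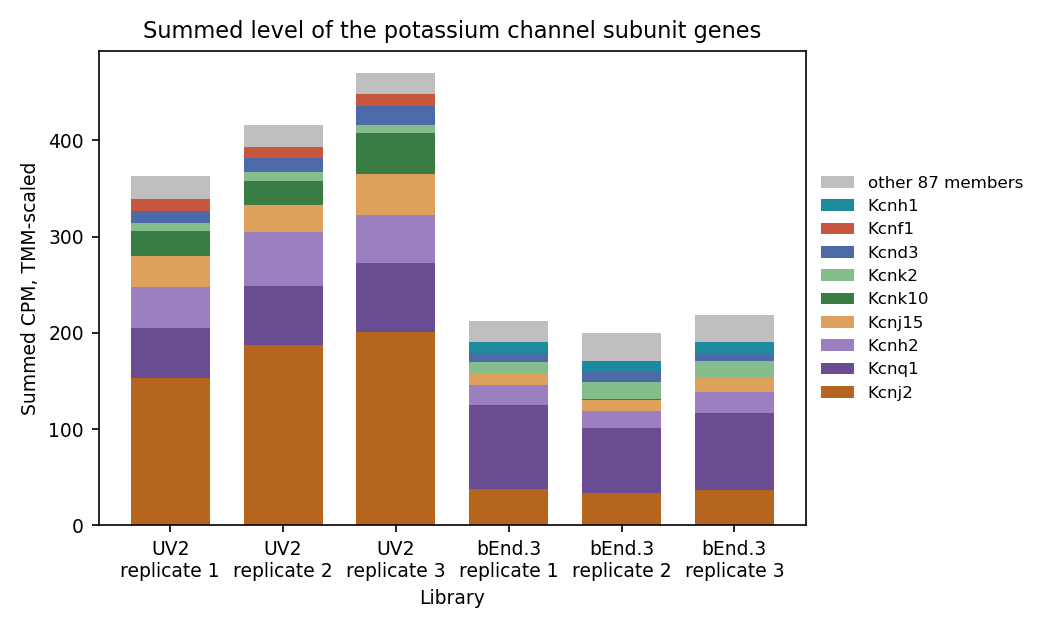
Summed CPM of the 96 members (94 subunit genes and 2 antisense RNAs) in each library, stacked by gene from 0, with the 87 members not named in grey. The UV2 bars reach 363 to 470 CPM and the bEnd.3 bars 200 to 219 CPM, and the Kcnj2 block at the foot is the widest difference.

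Per kilobase of annotated exon (GENCODE M21, which may not be the annotation the authors used), the order of levels was Kcnj2, Kcnq1, Kcnh2, Kcnj15, Kcnk10 and Kcnf1 in UV2. Kcnj2 averaged 33.1 ± 4.50 CPM per kilobase in UV2 and 6.63 ± 0.444 in bEnd.3. Kcnq1 averaged 15.1 ± 2.46 CPM per kilobase in UV2 and 19.04 ± 2.39 in bEnd.3. In UV2, Kcnj15 at 5.45 ± 1.20 and Kcnk10 at 3.54 ± 1.11 CPM per kilobase overlapped between libraries, while each other neighbour among the first 6 was apart. In bEnd.3 the order was Kcnq1, Kcnj2, Kcnh2, Kcnk2, Kcnk6, Kcnj15 and Kcnh1. There Kcnk2 at 3.14 ± 0.745, Kcnk6 at 2.07 ± 0.250 and Kcnj15 at 2.04 ± 0.253 CPM per kilobase overlapped, each with its neighbour.

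Genes that work with potassium channels were counted in lists that share no member with the Kcn genes. The sodium-potassium pump builds the gradient that the channels use, and UV2 was higher in 3 of 5 tested genes of its list and lower in 1, while 1 was not called. The median log2 fold change was 1.13, which is the value of the gene not called. Its beta subunit gene Atp1b3 had 539, 593 and 673 CPM in UV2 and 218, 201 and 190.4 CPM in bEnd.3 (1.57 ± 0.10 on the log2 scale, estimate and SE, adjusted p = 7.13e-06). Atp12a, a proton-potassium pump, averaged 0.206 ± 0.128 CPM in UV2 and 5.33 ± 2.78 CPM in bEnd.3 (-4.71 ± 0.62 on the log2 scale, estimate and SE, adjusted p = 0.000319).

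Of the cation-chloride cotransporters and their kinases, UV2 was higher in 4 of 15 tested genes and lower in 10, while 1 was not called, with a median of -0.58. Nedd4l, a ubiquitin ligase for ion transporters, averaged 83.9 ± 13.3 CPM in UV2 and 29.7 ± 3.00 CPM in bEnd.3 (adjusted p = 3.32e-05). Wnk4, a kinase that controls these cotransporters, averaged 0.632 ± 0.0824 CPM in UV2 and 3.64 ± 1.31 CPM in bEnd.3 (-2.53 ± 0.32 on the log2 scale, estimate and SE). Among partners of potassium channels 5 of 9 tested genes were higher, 2 lower and 2 not called. Ank2, a membrane adaptor, had the highest log2 fold change of that list (3.46, SE 0.43). The calmodulins are the calcium sensors of the Kcnn channels, and of their genes Calm2 averaged 241 ± 14.8 CPM in UV2 and 203 ± 13.7 CPM in bEnd.3, and Calm3 averaged 192 ± 8.58 CPM in UV2 and 221 ± 15.6 CPM in bEnd.3. The Kcnma1 partners Lrrc26, Lrrc38 and Lrrc52 had 0 counts throughout, and Lrrc55 had 10 counts in UV2 and 16 in bEnd.3.

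Of other potassium-permeable channels, UV2 was higher in 4 of 8 tested genes and lower in 2, and 2 were not called. Hcn3, a pacemaker-type channel, averaged 1.91 ± 0.193 CPM in UV2 and 0.0661 ± 0.0245 CPM in bEnd.3 (4.76 ± 0.34 on the log2 scale, estimate and SE), and Tmem175, a lysosomal potassium channel, averaged 13.9 ± 0.191 CPM in UV2 and 23.3 ± 4.17 CPM in bEnd.3 (-0.74 ± 0.14 on the log2 scale, estimate and SE). Of genes for calcium entry and the relay of endothelial hyperpolarisation, UV2 was higher in 8 of 20 tested and lower in 7, and 5 were not called. The bradykinin receptor gene Bdkrb2 had 4.18, 2.96 and 3.01 CPM in UV2 and 0 counts in bEnd.3, by the same bound at least 86.2-fold higher. Trpv4, a calcium channel upstream of the Kcnn channels and named after its values were seen, averaged 20.4 ± 3.22 CPM in UV2 and held 2 counts in bEnd.3 (ratio 786, 95% counting interval 217 to 6494). Gja5, the gap junction gene of arterial endothelium, averaged 0.0547 ± 0.0581 CPM in UV2 and 22.004 ± 14.9 CPM in bEnd.3 (-8.47 ± 0.87 on the log2 scale, estimate and SE). Across these 5 lists 75% to 93.3% of tested genes were called, against 67.1% of all genes tested.

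Total expected counts were 21306441 to 26769149 per UV2 library and 21944529 to 28748128 per bEnd.3 library. Of the endothelial markers, Pecam1 averaged 2166 ± 52.1 CPM in UV2 and 1951 ± 73.4 CPM in bEnd.3, and Cdh5 averaged 4039 ± 149.8 CPM in UV2 and 3958 ± 273 CPM in bEnd.3. Neither was called, but 4 of the 8 endothelial markers were. Emcn averaged 281 ± 29.2 CPM in UV2 and 780.2 ± 57.2 CPM in bEnd.3 (adjusted p = 9.05e-06), Eng (-0.69 on the log2 scale) and Erg (-0.35) were also lower in UV2, and Tie1 (0.88) was higher. The 8 together summed to 10565 to 12070 CPM in UV2 and 10420 to 10925 CPM in bEnd.3. Epithelial, astrocyte and leukocyte markers each summed to under 1 CPM in every library. The 6 neuronal markers summed to 172 to 247 CPM in UV2 and 9.95 to 35.97 CPM in bEnd.3, most of it from the neurofilament gene Nefl. Snap25, Syt1, Map2 and Stmn2 held 7, 4, 4 and 1 counts in UV2, where Rbfox3 held 0. In bEnd.3 Stmn2 held 59 counts and Rbfox3 22, and Snap25, Syt1 and Map2 held 0. The 10 mural markers summed to 12.8 to 14.5 CPM in UV2 and 1124 to 1387 CPM in bEnd.3, where Mcam, which endothelial cells also express, gave nearly all of it, and Cnn1 and Des had 0 counts throughout. The other direction held for Pdgfrb, at 4.36 ± 1.27 CPM in UV2 and 0.287 ± 0.131 CPM in bEnd.3 (adjusted p = 7.35e-05), while Acta2 had 39 counts in UV2 and 0 in bEnd.3. Tagln averaged 1.29 ± 0.351 CPM in UV2 and 2.13 ± 0.477 CPM in bEnd.3. The fibroblast markers summed to 7.90 to 16.4 CPM in UV2 and 1.57 to 2.85 CPM in bEnd.3, mostly from Pdgfra. The part of these markers in the channel genes' differences was not tested. In bulk libraries, fewer cells with a transcript and less transcript per cell cannot be told apart. Exons of 8 of the 20 tested members overlap a gene on the opposite strand.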

How the data were processed

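The 3 UV2 and 3 bEnd.3 libraries were grouped and numbered by their titles. Per the labels' protocols, trypsinised cells gave RNA (RNeasy Micro) for TruSeq Stranded mRNA libraries. Trim Galore, STAR and RSEM, with mm10, appear in the submitters' processing notes, and versions, annotation and strand setting were not stated. The authors deposited expected counts per gene symbol without normalization, and these were rounded to whole numbers.

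filterByExpr (about 0.419 CPM in 3 libraries) kept 12720 of 24411 genes. The fit was edgeR's quasi-likelihood test with TMM scaling and the line as its only term, and glmTreat on the same fit tested changes beyond 2-fold. Alternatives were RLE scaling, total counts, no filter, 1 CPM in 3 libraries, a replicate block, DESeq2, limma-voom, removal of each chromosome's median and leaving out each library. RefSeq GRCm38.p6 positions were found for all 96 members. Members and lists were chosen with earlier results of these data known. By rule, every tested member and each untested one with at least 10 counts could be named. Called members averaging 1 CPM or more in either line have each library's value printed. By the same rule each companion list gives its highest and lowest called gene among those averaging 1 CPM or more in either line. Some genes that this rule names are not reported here. Intervals cover counting error only, and floors only that of the line without counts. Replicates differed by more than sampling noise (chi-square per degree of freedom 11.3 to 38.4). The procedure was run on 5 simulated sets with 200 changed genes, which averaged at least 1 CPM and held no Kcn gene. It called 98.2% of 2-fold and 100% of 4-fold changes, and 5.23% of its calls were unchanged genes. Far more genes differ between these lines, and the sets used 1 dispersion for all genes, so they do not cover the calls at low counts. Versions were edgeR 4.0.16 and limma 3.58.1 under R 4.3.3, with DESeq2 1.42.0. Figures used matplotlib 3.10.9.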

Additional observations from a re-analysis of the deposited data

How the results depend on the processing

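The 11 higher and 5 lower subunit genes depended mostly on the filter for low counts. Without a filter 20 were higher and 8 lower, and beyond 2-fold 14 were higher and 5 lower, against 8 and 3, while over all 17283 genes then tested 4630 were higher and 4411 lower. With at least 1 CPM in 3 libraries 4129 of 11998 genes were higher and 3965 lower, and of the subunit genes 7 were higher and 5 lower, because Kcna1, Kcna4, Kcnab3 and Kcnc2 were no longer tested. With the replicate number as a block the counts were 11 and 5, and all 16 calls were shared. Same-numbered libraries of the lines deviated together with correlations of 0.0854, 0.161 and 0.200, above those of differently numbered ones (-0.222 to 0.0624). Whether the numbers mark a shared batch was not tested, and the main fit did not take them as pairs. RLE scaling and limma-voom gave 11 and 5, total counts, DESeq2 and removal of chromosome medians 11 and 6. Leaving out 1 library gave 12 to 15 higher and 4 to 7 lower, and beyond 2-fold 8 to 10 higher and 2 to 4 lower. Over all genes it gave 3998 to 4416 higher and 3765 to 4326 lower. The sign of Kcne3, which was not called, turned to 0.24 with chromosome medians removed, and leaving out 1 library gave -0.13 to 0.13, positive without UV2 replicate 3 (0.13) and without bEnd.3 replicate 2 (0.13). Limma-voom gave log2 fold changes of 9.24 for Kcnf1, 5.73 for Kcnc2 and 4.79 for Kcna1, and the cause was not tested. Of 275 fitted values of tested members under these alternatives, 263 kept their direction and their side of the threshold. Of the members with under 10 counts in all, Kcnc1 and Kcnj6, with 8 counts each in UV2 and 0 in bEnd.3, were called without a filter and the rest were not.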
